A study of Mus musculus with 23 samples.

Results

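The genes described here are Grb10 and 9 other genes of the insulin and insulin-like growth factor (IGF) axis: Igf2, H19, Igf1, Igf1r, Igf2r, Insr, Irs1, Irs2 and Igfbp2. They were taken by gene symbol from the rows of the count tables, and each symbol had 1 row among 39017. The set was selected on measured values of these samples, with Grb10 chosen by its difference between K27M-APP and EV-PDGFRA cells, so values from that contrast are given below as a description, and nothing is read from the calls made there. All 10 genes passed the filter on low counts, Igf2 and Igf1 with few reads.

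RNA was measured by RNA-seq in GFP-positive cells of C57BL/6 mouse cortex. Constructs had been delivered to embryonic neural progenitors by in utero electroporation with piggyBac, a transposon that inserts its cargo into the genome, and the cells were sorted and expanded before sequencing. The 15 preneoplastic libraries, collected 72 hours after electroporation, comprised EV ctl (empty vector, wild type, n = 2), EV-PDGFRA (Pdgfra overexpression, n = 3), WT-AP (wild-type H3.3 overexpression, Trp53-/- and a short hairpin against Atrx, n = 4), K27M-AP (H3.3K27M overexpression with the same Trp53 and Atrx lesions, n = 4) and K27M-APP (K27M-AP plus Pdgfra overexpression, n = 2). The 8 tumour libraries, collected 5 to 9 months after electroporation, comprised K27M-AP T (n = 3) and K27M-APP T (n = 4), with the lesions of their preneoplastic namesakes, and K27M-P T (H3.3K27M and Trp53-/-, n = 1). The labels of EV ctl and EV-PDGFRA name neither Trp53 loss nor an Atrx hairpin, so K27M-APP differed from EV-PDGFRA in histone, Trp53 and Atrx at once, and the parts of these 3 lesions cannot be told apart in that contrast. By label, WT-AP differed from K27M-AP in the histone alone.

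Insulin, Igf1 and Igf2 bind the receptor tyrosine kinases Insr and Igf1r, which phosphorylate the substrates Irs1 and Irs2 and pass the signal to PI3 kinase and Akt. Grb10 is an adaptor that docks on the activated receptors and restrains their signalling, Igf2r clears Igf2 from the cell surface, and Igfbp2 binds IGFs outside the cell. Grb10, Igf2, H19 and Igf2r are imprinted in the mouse: most tissues express Grb10, H19 and Igf2r from the maternal copy and Igf2 from the paternal copy, while neurons use a separate, paternal Grb10 promoter. H3.3K27M inhibits the methyltransferase complex PRC2, which deposits H3K27me3, a mark of silenced genes.

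Grb10 (ENSMUSG00000020176) lies on chromosome 11 at 11930508 to 12038683 on the minus strand (GRCm38, GENCODE M21). RefSeq gives it a pair of transcription starts, 9449 bases apart. The 300 bases around each are printed because the counts join both and the sequences differ in CpG content. Each runs 5′ to 3′ on the gene's strand, from 250 bases before to 50 bases after the start, with CG dinucleotides in capitals. The first is chr11:12037371-12037670, around the start at 12037420, and the second is chr11:12027922-12028221, around the start at 12027971, both in RefSeq on GRCm38.p6.
Grb10 window 1: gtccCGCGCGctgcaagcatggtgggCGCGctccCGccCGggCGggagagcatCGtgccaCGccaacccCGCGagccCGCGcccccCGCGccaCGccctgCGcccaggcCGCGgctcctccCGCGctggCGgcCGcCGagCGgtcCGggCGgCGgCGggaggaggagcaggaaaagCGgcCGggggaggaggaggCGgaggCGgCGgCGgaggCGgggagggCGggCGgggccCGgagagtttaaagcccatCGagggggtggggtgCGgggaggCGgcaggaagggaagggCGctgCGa
Grb10 window 2: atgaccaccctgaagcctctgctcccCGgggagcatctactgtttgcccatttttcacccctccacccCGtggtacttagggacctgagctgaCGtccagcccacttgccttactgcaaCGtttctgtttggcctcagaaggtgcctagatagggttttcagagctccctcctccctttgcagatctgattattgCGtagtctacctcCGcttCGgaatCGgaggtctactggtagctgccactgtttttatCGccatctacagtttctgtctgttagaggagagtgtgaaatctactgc
The first window held 45 CG dinucleotides and a GC content of 80.0%, and 1.93% of the 32851 mouse promoter windows of this length in the table held as many. The second held 9 CG dinucleotides at 52.3% GC, as many as 45.8% of windows, against a median of 7. The deposited counts join transcripts from both starts, so the values below do not say which start was used. RefSeq promoter windows were found for 8 of the 10 genes, 13 windows in all.

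H19, a long noncoding RNA at chromosome 7, 142575529 to 142578143 (minus strand), contains the miRNA gene Mir675 in an exon. Its mature miRNAs (RefSeq, GRCm38.p6) are printed 5′ to 3′ with the seed, bases 2 to 8, in capitals because they are the processed products of H19. The -5p arm lies at chr7:142577112-142577133 and the -3p arm at chr7:142577078-142577099.
mmu-miR-675-5p: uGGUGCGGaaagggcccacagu
mmu-miR-675-3p: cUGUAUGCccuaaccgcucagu
The arms have different seeds. Mature miRNAs were not measured here: the Mir675 row, which shares 84 exon bases with H19, held 0.216 to 3.39 CPM (read counts scaled to a common library size).

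Each library held 37300947 to 68642582 counted reads, so 1 CPM stood for 38.1 to 68.9 reads. The targeted genes were read first. Pdgfra, a receptor tyrosine kinase of glial precursors, stood at 409 to 1891 CPM in the 9 libraries with its construct and at 33.5 to 412 CPM in the other 14, and Atrx was at 46.0 to 163 CPM in every library labelled with the hairpin except the library labelled WT-AP 1, at 262 CPM against 184 and 241 CPM in EV ctl. Trp53, the tumour suppressor p53, was at 40.9 to 51.6 CPM in EV ctl and EV-PDGFRA and at 7.14 to 27.7 CPM in the libraries labelled Trp53-/-, except the library labelled K27M-AP T 4, at 49.5 CPM beside 9.90 and 11.2 CPM in its group. The differences described below that rest on either library are also given without it. For 9 libraries the title and the variant file listed beside it carry different sample names, and the titles were used. K27M-AP 4 stood apart, with the lowest Mki67, a proliferation marker (19.1 CPM), the lowest summed neural progenitor markers (2454 CPM, range 2454 to 11192 CPM) and the highest summed mature oligodendrocyte markers (1788 CPM, range 51.5 to 1788 CPM). EV ctl 5 had the next lowest Mki67 (43.1 CPM, against 321 CPM in EV ctl 4). K27M-AP 4 also had the highest endothelial, astrocyte and neuronal sums (85.8, 2689 and 1311 CPM, from minima of 2.16, 844 and 256 CPM). Microglial markers summed to 7.90 to 18.6 CPM, choroid plexus markers to 0.512 to 26.6 CPM, and fibroblast and meningeal markers to 4.81 to 214 CPM, highest in K27M-APP T 3. The libraries were deposited in tables here called the earlier and the later. Both EV ctl libraries came only in the later one, and both K27M-APP libraries were also in the earlier one. Table and group therefore cannot be told apart for comparisons of these groups with each other. The labels do not say that replicates came from separate animals or cultures, so a p-value measures the spread between these libraries only.

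Grb10 ranged over 3 orders of magnitude, from 0.372 CPM (18 reads) to 518 CPM (22021 reads). Its level was 15.8 and 8.51 CPM in the EV ctl libraries. In EV-PDGFRA it was 0.990, 6.54 and 0.372 CPM, the lowest group. In WT-AP it was 15.7, 91.4, 8.71 and 41.9 CPM. The 9 preneoplastic libraries without K27M therefore lay between 0.372 and 91.4 CPM, with a median of 8.71 CPM. K27M-AP held 151, 331, 81.4 and 59.4 CPM, and K27M-APP 285 and 271 CPM, so that the 6 preneoplastic K27M libraries ran from 59.4 to 331 CPM with a median of 211 CPM. All 6 of 6 were above every EV ctl and EV-PDGFRA library, and WT-AP 2 overlapped the lower K27M-AP libraries. These pools differ in the labelled Trp53 and Atrx lesions as well as in histone. They also hold the libraries that chose Grb10, so the pooled values are descriptions only. On the same labelled lesions, the median was 28.8 CPM in WT-AP and 116 CPM in K27M-AP. In bulk samples such as these, fewer cells of a type and less RNA per cell cannot be told apart.

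**Figure D1:**
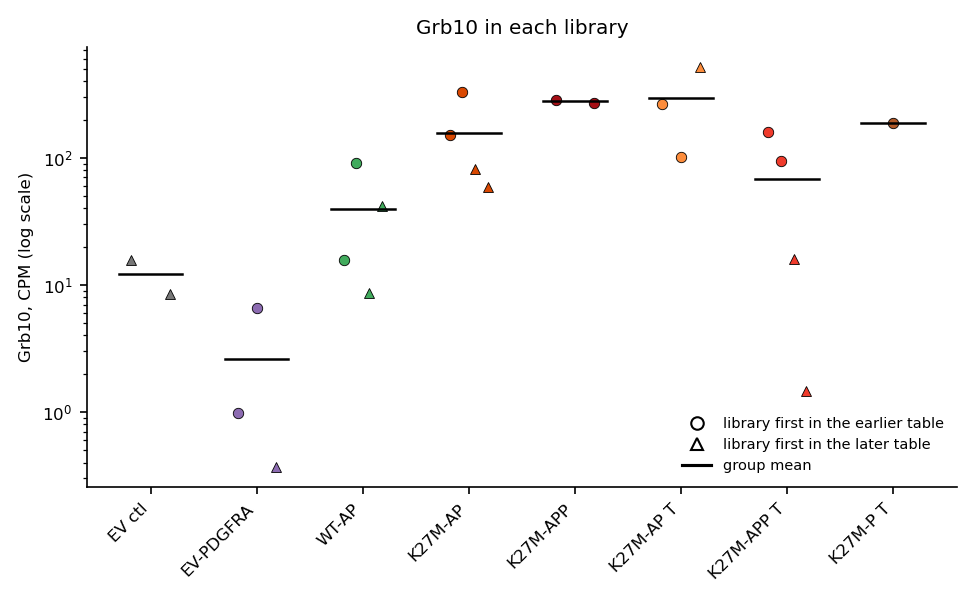
Grb10 level in each of the 23 libraries, as TMM-scaled CPM on a log axis, by group. Circles are libraries in the earlier table, triangles those only in the later table, and the black line is the group mean. EV-PDGFRA holds the lowest preneoplastic values (0.372 to 6.54 CPM), the 6 preneoplastic K27M libraries lie at 59.4 to 331 CPM, and K27M-APP T spreads from 1.46 to 159 CPM.

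The tumours did not share 1 Grb10 level. K27M-AP T libraries held 263, 101 and 518 CPM, the last in the library labelled K27M-AP T 4 with Trp53 at the EV ctl level, and the K27M-P T library 189 CPM. K27M-APP T libraries held 159, 95.2, 16.0 and 1.46 CPM, and the lowest of these was within the EV-PDGFRA range. By group mean the order was K27M-AP T (294 ± 210 CPM, SD, n = 3), K27M-APP (278 ± 9.96, SD, n = 2), K27M-P T (189), K27M-AP (156 ± 123, SD, n = 4), K27M-APP T (68.0 ± 73.5, SD, n = 4), WT-AP (39.4 ± 37.4, SD, n = 4), EV ctl (12.1 ± 5.12, SD, n = 2) and EV-PDGFRA (2.63 ± 3.39, SD, n = 3). Between neighbours in this order, library ranges stayed apart only for K27M-APP against the single K27M-P T library and for EV ctl against EV-PDGFRA.

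In the contrast that led to its choice, K27M-APP cells had 278 CPM of Grb10 and EV-PDGFRA cells 2.63 CPM, a fitted log2 difference of 6.72 (SE 1.26), with all K27M-APP libraries above all EV-PDGFRA libraries. Grb10 was the 1 member of 10 called higher there, where 0.906% of the 20197 genes tested were called higher and 1.94% in either direction. Nothing is read from that count, since the contrast chose the gene, and the call was lost without EV-PDGFRA 1, EV-PDGFRA 3, K27M-APP 1 or K27M-APP 2. The log2 difference ran from 6.20 to 8.67 over the alternative analyses, highest without EV-PDGFRA 2. Summed neuronal markers were 856 and 944 CPM in K27M-APP and 647 to 793 CPM in EV-PDGFRA. Astrocyte sums (983 and 1030 against 1855 to 2305 CPM) and proliferation sums (2885 and 3046 against 1030 to 2620 CPM) also lay apart. So did neural progenitor sums (5601 and 5816 against 6408 to 7093 CPM) and oligodendrocyte precursor sums (1965 and 2322 against 2560 to 3720 CPM). Endothelial sums were higher in K27M-APP, and fibroblast and meningeal sums lower, without overlap. Mature oligodendrocyte sums overlapped (74.7 and 94.0 against 77.5 to 159 CPM), as did microglial and choroid plexus sums. The part of cell composition in the Grb10 difference was not tested.

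The comparison of histones on the same labelled Trp53 and Atrx lesions gave a fitted difference of less than 2 log2 units. K27M-AP exceeded WT-AP in mean Grb10 by 1.97 on the log2 scale (SE 0.861), with overlapping libraries, and the difference did not pass (edgeR's quasi-likelihood test over all genes, Benjamini-Hochberg adjusted p = 1.00). In that comparison 0 of 10 members and 0.0297% of genes were called, and Grb10 was the 1 member with an unadjusted p under 0.05, where 3.95% of genes were. DESeq2 and limma-voom also called 0 members. Without K27M-AP 4, the library that stood apart, the difference was 2.25 (SE 0.882, edgeR adjusted p = 1.00). Without the library labelled WT-AP 1, whose Atrx was not below EV ctl, it was 1.71 (SE 0.942, edgeR adjusted p = 0.876). The direction held within each deposited table, at 2.17 among earlier and 1.47 among later libraries. Over all alternatives it lay between 1.33 and 2.81, with adjusted p from 0.168 to 1.00.

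None of the other Grb10 differences passed. WT-AP against EV ctl gave a log2 difference of 1.71 (SE 1.11, edgeR adjusted p = 0.641), from 0.77 to 2.22 over the alternatives, and 1.98 without the library labelled WT-AP 1. EV-PDGFRA against EV ctl gave -2.17 (SE 1.09, edgeR adjusted p = 0.713), from -5.01 to -1.65 over the alternatives. It was -4.12 without EV-PDGFRA 2, which held 6.54 CPM beside 0.990 and 0.372 CPM. Among later-table libraries it was -5.01, with EV-PDGFRA 3, at 0.372 CPM, the only EV-PDGFRA library. These comparisons share both EV ctl libraries. Adding Pdgfra to K27M-AP cells gave 0.86 (SE 0.989, edgeR adjusted p = 0.748), from 0.20 to 1.53 over the alternatives. The Pdgfra difference was negative on the empty-vector and positive on the K27M-AP background. The gap between them, 3.03 (SE 1.46), did not pass (edgeR interaction term, adjusted p = 1.00). It contains the K27M-APP minus EV-PDGFRA difference by which Grb10 was chosen, so nothing is read from the gap or the opposite signs.

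Between stages, K27M-AP T against K27M-AP gave 0.89 (SE 1.05, edgeR adjusted p = 0.763). The direction turned among earlier-table libraries, at -0.42 against 2.87 among later ones. The library labelled K27M-AP T 4 was the only later-table K27M-AP T library. Without it, the value from both tables was 0.22 (edgeR adjusted p = 0.977). K27M-APP T against K27M-APP gave -2.04 (SE 1.15, edgeR adjusted p = 1.00), from -3.30 to -1.14 over the alternatives. All 4 K27M-APP tumours lay below both K27M-APP cell libraries, from 1.46 to 159 CPM against 271 to 285 CPM. Both K27M-APP cell libraries were also part of the contrast that chose Grb10, so this direction is not independent of that choice. The 2 K27M-APP tumours deposited in the earlier table held 95.2 and 159 CPM, and the 2 first seen in the later one 1.46 and 16.0 CPM. The part of the table in this spread was not tested. K27M-APP T against K27M-AP T gave -2.09 (SE 1.06, edgeR adjusted p = 1.00). It was -0.51 among earlier-table libraries and -1.41 without the library labelled K27M-AP T 4. Among later-table libraries it was -5.88, with K27M-AP T 4 again the only K27M-AP T library. The 2 stage differences differed by -2.93 (SE 1.56, edgeR adjusted p = 0.913), and by -2.26 (SE 1.66) without the library labelled K27M-AP T 4.

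Genes near Grb10 on chromosome 11 were low in all 23 libraries. Ddc, the decarboxylase of dopamine and serotonin synthesis, which is imprinted in heart, reached at most 8.06 CPM, and Cobl, an actin nucleator, at most 17.6 CPM. The 5 genes whose levels ranked most like Grb10 over the 23 libraries, among 9708 genes averaging 10 CPM or more, were Baz2b (Spearman's rho 0.87), Pms1 (0.86), Hist3h2ba (0.86), Pde7a (0.86) and Mllt4 (0.85). Baz2b encodes a bromodomain protein, Pms1 a mismatch repair protein, Hist3h2ba a histone H2B, Pde7a a cAMP phosphodiesterase and Mllt4 the junction protein afadin. Their spans were narrower than that of Grb10: Baz2b group means ran from 39.9 CPM in EV-PDGFRA to 96.2 CPM in K27M-APP, and Mllt4 from 106 to 234 CPM in the same groups. The libraries share groups and depth, so these correlations are descriptions.

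The ligands were almost unexpressed. Igf2, the fetal growth ligand (chromosome 7, 142650766 to 142666816, minus strand), had 0 to 42 reads per library, at most 0.800 CPM in EV ctl 5. It had 0 reads in 5 libraries, K27M-AP 1 and 2, K27M-APP 2, K27M-APP T 1 and WT-AP 2, where a count of 0 allows up to 0.0549 to 0.0738 CPM (3 reads, counting error only). EV ctl 4 and 5 held 0.410 and 0.800 CPM and EV-PDGFRA 0.0450 to 0.455 CPM. K27M-AP T held 0.130, 0.411 and 0.330 CPM, all above the highest K27M-AP library at 0.0867 CPM, a difference that did not pass (edgeR adjusted p = 0.344, and 0.632 without the library labelled K27M-AP T 4). Igf2 also shares 3596 exon bases with a readthrough gene model that is not a row of the tables. Insulin itself was not detected beyond trace: Ins1 had 0 CPM in every library and Ins2 at most 0.0373 CPM.

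Igf1, the other IGF ligand (chromosome 10, 87858265 to 87937042, plus strand), had 2 to 47 reads per library. Its level was 0.876 and 0.495 CPM in EV ctl, 0.0450, 0.118 and 0.165 CPM in EV-PDGFRA and 0.119 to 0.299 CPM in WT-AP. Both EV ctl libraries were above every EV-PDGFRA and WT-AP library. The log2 difference was -2.58 for EV-PDGFRA (SE 0.704, edgeR adjusted p = 0.598) and -1.64 for WT-AP (SE 0.627, edgeR adjusted p = 0.388), and neither passed. Tumours held 0.0893 to 0.788 CPM.

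H19 was highest among preneoplastic cells in EV ctl. The EV ctl libraries held 19.8 and 14.97 CPM, EV-PDGFRA 3.33, 2.72 and 2.03 CPM, and WT-AP 9.18, 2.90, 2.76 and 3.96 CPM, so both EV ctl libraries stood above every EV-PDGFRA and WT-AP library. The log2 difference from EV ctl was -2.66 in EV-PDGFRA (SE 0.649, edgeR adjusted p = 0.567) and -1.88 in WT-AP (SE 0.587, edgeR adjusted p = 0.283), and neither passed. Without EV ctl 5 the differences were -2.88 (SE 0.769) and -2.07 (SE 0.728). Without the library labelled WT-AP 1, the WT-AP difference from EV ctl was -2.42 for H19, -1.43 for Igf1 and 0.97 for Irs1. DESeq2, run as an alternative, gave -2.68 for EV-PDGFRA with an adjusted p of 0.0160. K27M-AP held 2.74, 11.9, 2.58 and 3.71 CPM and K27M-APP 4.05 and 3.51 CPM. The highest tumour values were in single libraries: K27M-AP T 2 held 36.5 CPM beside 2.81 and 3.53 CPM in its group. K27M-APP T 3 held 21.5 CPM beside 5.13 to 10.8 CPM. All 4 K27M-APP tumours lay above both K27M-APP cell libraries in H19, a difference that did not pass by edgeR.

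Over the 23 libraries, the rank correlation with Grb10 was 0.15 for H19, 0.17 for Igf1 and -0.49 for Igf2, given as a description. K27M-APP T 3, with high H19, also had the highest fibroblast and meningeal marker sum, 214 CPM. The K27M-AP T library with the highest H19, K27M-AP T 2, had the lowest such sum of its group, 24.5 CPM against 57.5 and 57.4 CPM. The part of those cells in H19 was not tested. Neighbours at the H19 locus were low, Mrpl23, a mitochondrial ribosomal protein gene, at 1.35 to 3.10 CPM and Nctc1 at no more than 0.178 CPM.

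**Figure D2:**
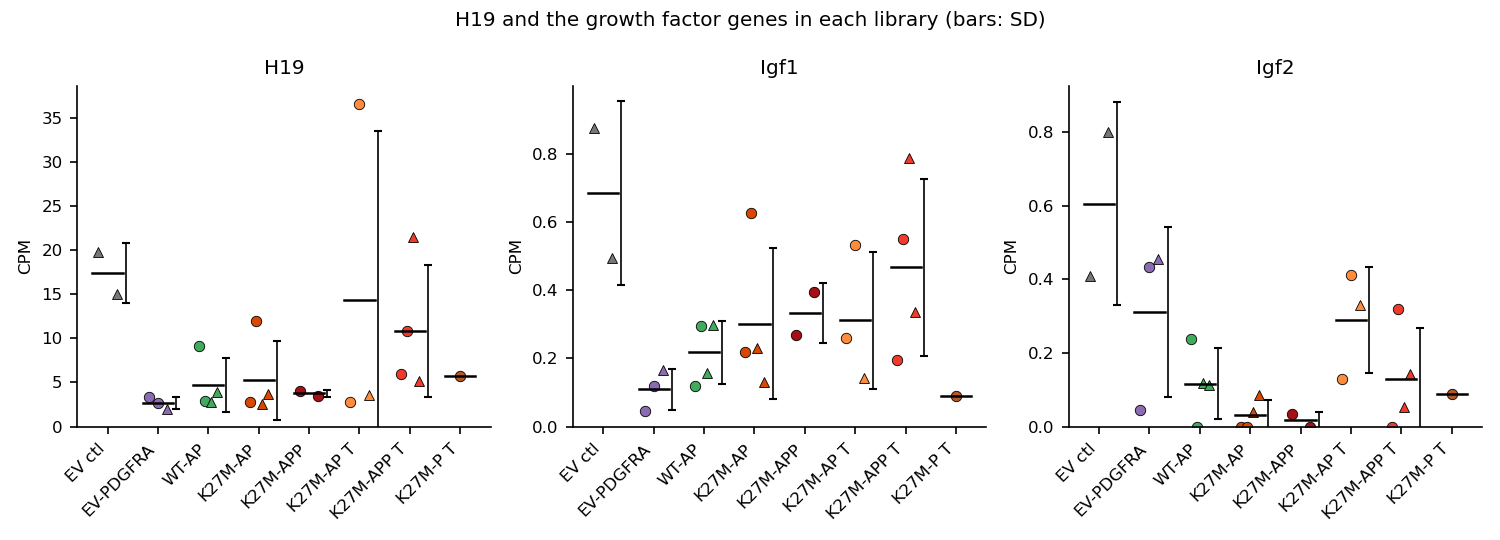
Levels of Igf2, H19 and Igf1 in each library, as TMM-scaled CPM by group; circles are libraries of the earlier table, triangles of the later, black lines group means and bars the SD. Igf2 and Igf1 stay below 1 CPM, and H19 is at 14.97 and 19.8 CPM in EV ctl, with single high tumour libraries at 36.5 and 21.5 CPM.

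The receptors were present in every library and varied far less than Grb10. Igf1r, the IGF receptor kinase (chromosome 7, 67952827 to 68233668, plus strand), held 35.4 and 33.4 CPM in EV ctl and 50.5, 60.1 and 29.6 CPM in EV-PDGFRA. WT-AP held 36.7, 76.2, 40.8 and 48.1 CPM, K27M-AP 82.0, 83.5, 65.4 and 40.0 CPM, and K27M-APP 70.7 and 108 CPM. The preneoplastic group means were EV ctl (34.4 ± 1.44 CPM, SD, n = 2), EV-PDGFRA (46.7 ± 15.6, SD, n = 3), WT-AP (50.5 ± 17.8, SD, n = 4), K27M-AP (67.7 ± 20.2, SD, n = 4) and K27M-APP (89.1 ± 26.0, SD, n = 2), and libraries overlapped between every pair of groups next to each other in level. Tumours held 42.5 to 117 CPM. No Igf1r difference passed by edgeR in any of the 8 comparisons. Limma-voom called Igf1r in K27M-APP against EV-PDGFRA, the contrast that chose Grb10, and nothing is read from that call.

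Insr, the insulin receptor (chromosome 8, 3122061 to 3279617, minus strand), was at 60.6 to 183 CPM. K27M-APP was the highest group, with 138 and 183 CPM, and K27M-APP T held 90.1, 87.8, 75.6 and 89.8 CPM. All 4 tumours were below both cell libraries, a log2 difference of -0.92 (SE 0.279) that did not pass (edgeR adjusted p = 1.00). In K27M-AP the stage difference was 0.21 (SE 0.252), and the difference between these stage differences was -1.12 (SE 0.377, edgeR adjusted p = 0.913). Without the library labelled K27M-AP T 4 these were -0.10 (SE 0.247) and -0.83 (SE 0.342).

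Igf2r, the clearance receptor (chromosome 17, 12682406 to 12769664, minus strand), ranged from 70.0 to 338 CPM. Its group means were 82.2 ± 8.56 CPM (SD, n = 2) in EV ctl, 107 ± 39.5 (SD, n = 3) in EV-PDGFRA, 121 ± 40.5 (SD, n = 4) in WT-AP, 150 ± 68.2 (SD, n = 4) in K27M-AP, 190 ± 35.6 (SD, n = 2) in K27M-APP, 225 ± 105 (SD, n = 3) in K27M-AP T and 189 ± 43.7 (SD, n = 4) in K27M-APP T. The highest value, 338 CPM, was in the library labelled K27M-AP T 4, beside 208 and 130 CPM in its group. Libraries overlapped between every pair of groups next to each other in level. Airn, the antisense RNA that silences paternal Igf2r in many tissues, was at 0.743 to 6.26 CPM. Igf2r, Igf1r and Insr were the members that ranked most like Grb10 over the 23 libraries, with rho of 0.69, 0.68 and 0.57.

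Irs1, a receptor substrate (chromosome 1, 82233101 to 82291416, minus strand) held 61.6 and 56.3 CPM in EV ctl, 116, 129 and 104 CPM in EV-PDGFRA and 74.4, 146, 108 and 91.3 CPM in WT-AP. Both EV ctl libraries were below all libraries of those other groups. The log2 difference was 1.01 for EV-PDGFRA (SE 0.306, edgeR adjusted p = 0.607) and 0.84 for WT-AP (SE 0.292, edgeR adjusted p = 0.326), and neither passed. K27M-AP held 99.5, 91.5, 104 and 53.7 CPM, the last in the library that stood apart. Tumours held 85.0 to 286 CPM, highest in K27M-APP T 3. Irs1 shares 2822 exon bases with Gm9747 on the opposite strand, whose row ran from 18.5 to 113 CPM and was also lower in EV ctl (21.1 and 23.2 CPM) than in EV-PDGFRA (46.8 to 47.4 CPM), and with no stated strand setting the reads of the pair cannot be told apart.

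Irs2 (chromosome 8, 10984681 to 11008458, minus strand) held 25.0 and 65.8 CPM in EV ctl, and EV-PDGFRA 64.8 to 82.2 CPM. K27M-APP held 65.4 and 69.3 CPM and K27M-APP T 36.7, 28.6, 41.5 and 41.1 CPM. The tumours were all below the cells by -0.88 on the log2 scale (SE 0.275), and the difference did not pass (edgeR adjusted p = 1.00). In K27M-APP T against K27M-APP, 0 of 10 members and 0% of genes were called, and Insr and Irs2 were the 2 members with an unadjusted p under 0.05, where 3.33% of genes were.

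Igfbp2, the IGF binding protein of neural progenitors (chromosome 1, 72824503 to 72852474, plus strand), was the most abundant member per length, with a median of 421 CPM per kilobase of exon. On the same scale Igf2r had 15.5, Irs1 11.8, Grb10 8.96, Irs2 7.68, Insr 6.58, Igf1r 3.89, H19 1.61, Igf1 0.0262 and Igf2 0.0196. In CPM, Igfbp2 held 637 and 705 in EV ctl and 1280, 1158 and 1106 in EV-PDGFRA, with no overlap. The log2 difference was 0.85 (SE 0.751, edgeR adjusted p = 0.802). K27M-AP held 800, 346, 856 and 48.6 CPM, and the last, K27M-AP 4, was the lowest of the 23 libraries. K27M-AP against WT-AP gave -0.99 (SE 0.572, edgeR adjusted p = 1.00), and -0.61 (SE 0.292, edgeR adjusted p = 1.00) without K27M-AP 4 and -1.04 (SE 0.633) without the library labelled WT-AP 1. K27M-APP held 713 and 696 CPM, below all 3 EV-PDGFRA libraries, and tumours held 504 to 973 CPM.

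**Figure D3:**
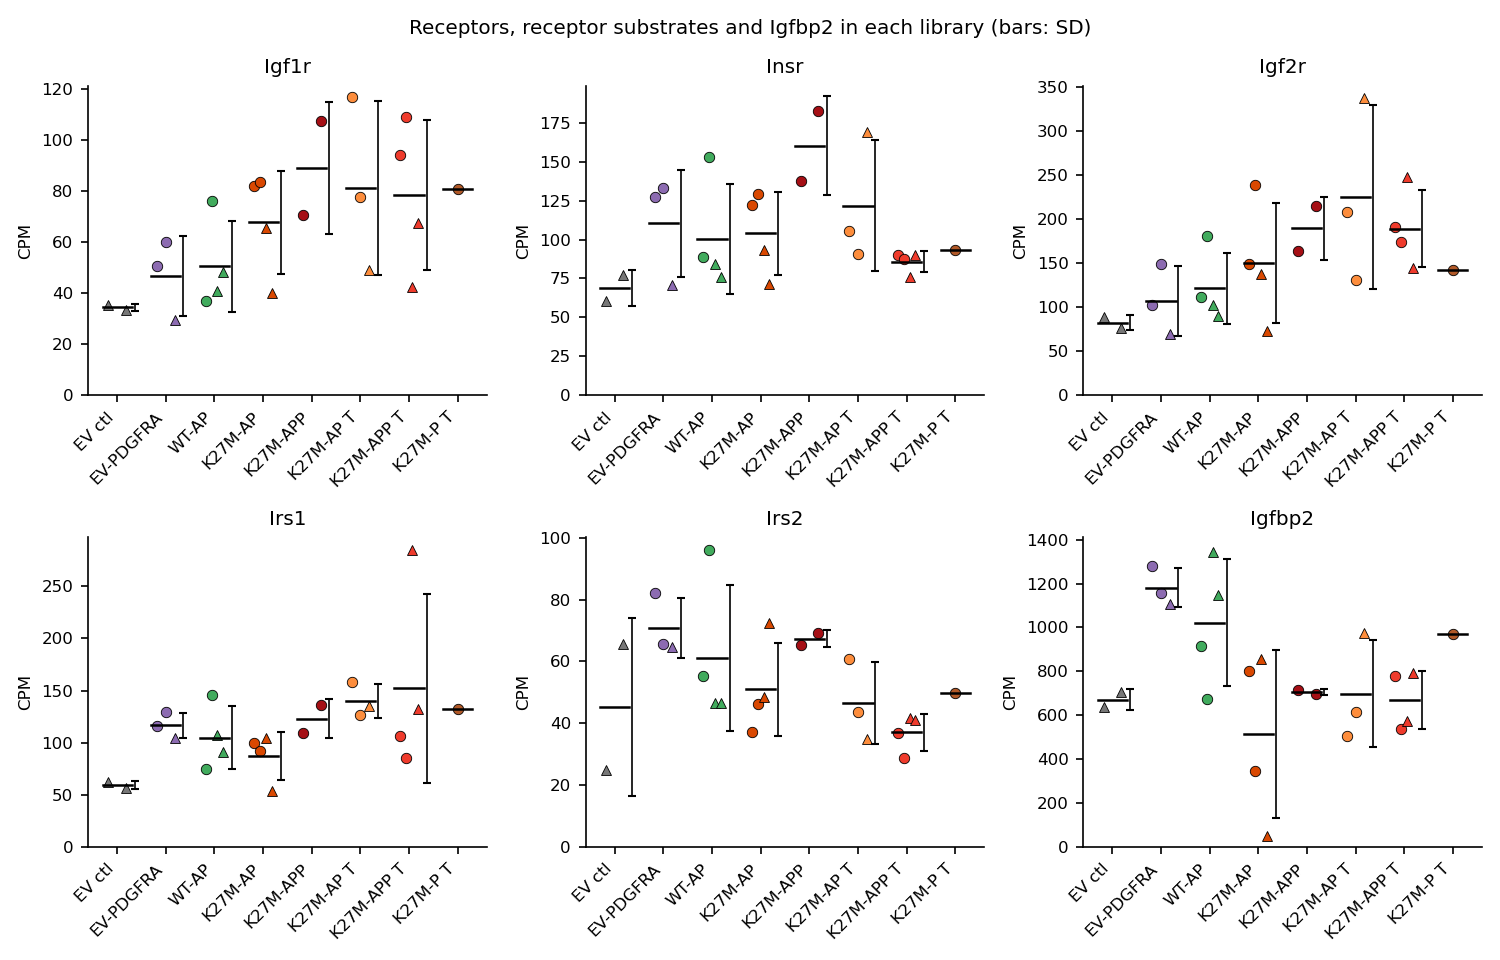
Levels of Igf1r, Insr, Igf2r, Irs1, Irs2 and Igfbp2 in each library, as TMM-scaled CPM by group; circles are libraries of the earlier table, triangles of the later, black lines group means and bars the SD. Igf1r group means climb from 34.4 CPM in EV ctl to 89.1 CPM in K27M-APP with wide overlap, and the 4 K27M-APP T libraries of Insr (75.6 to 90.1 CPM) lie below both K27M-APP libraries.

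Beside Grb10 at 6.72, the members' log2 differences of K27M-APP from EV-PDGFRA were 1.57 for Igf1, 0.93 for Igf1r, 0.82 for Igf2r, 0.54 for Insr, 0.49 for H19, 0.08 for Irs1, -0.07 for Irs2, -0.75 for Igfbp2 and -3.95 for Igf2, the last from at most 2 reads in K27M-APP. Libraries did not overlap for 8 of the 10 members, in a comparison where the same was true of 49.6% of genes. The median over the members was 0.51.

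**Figure D4:**
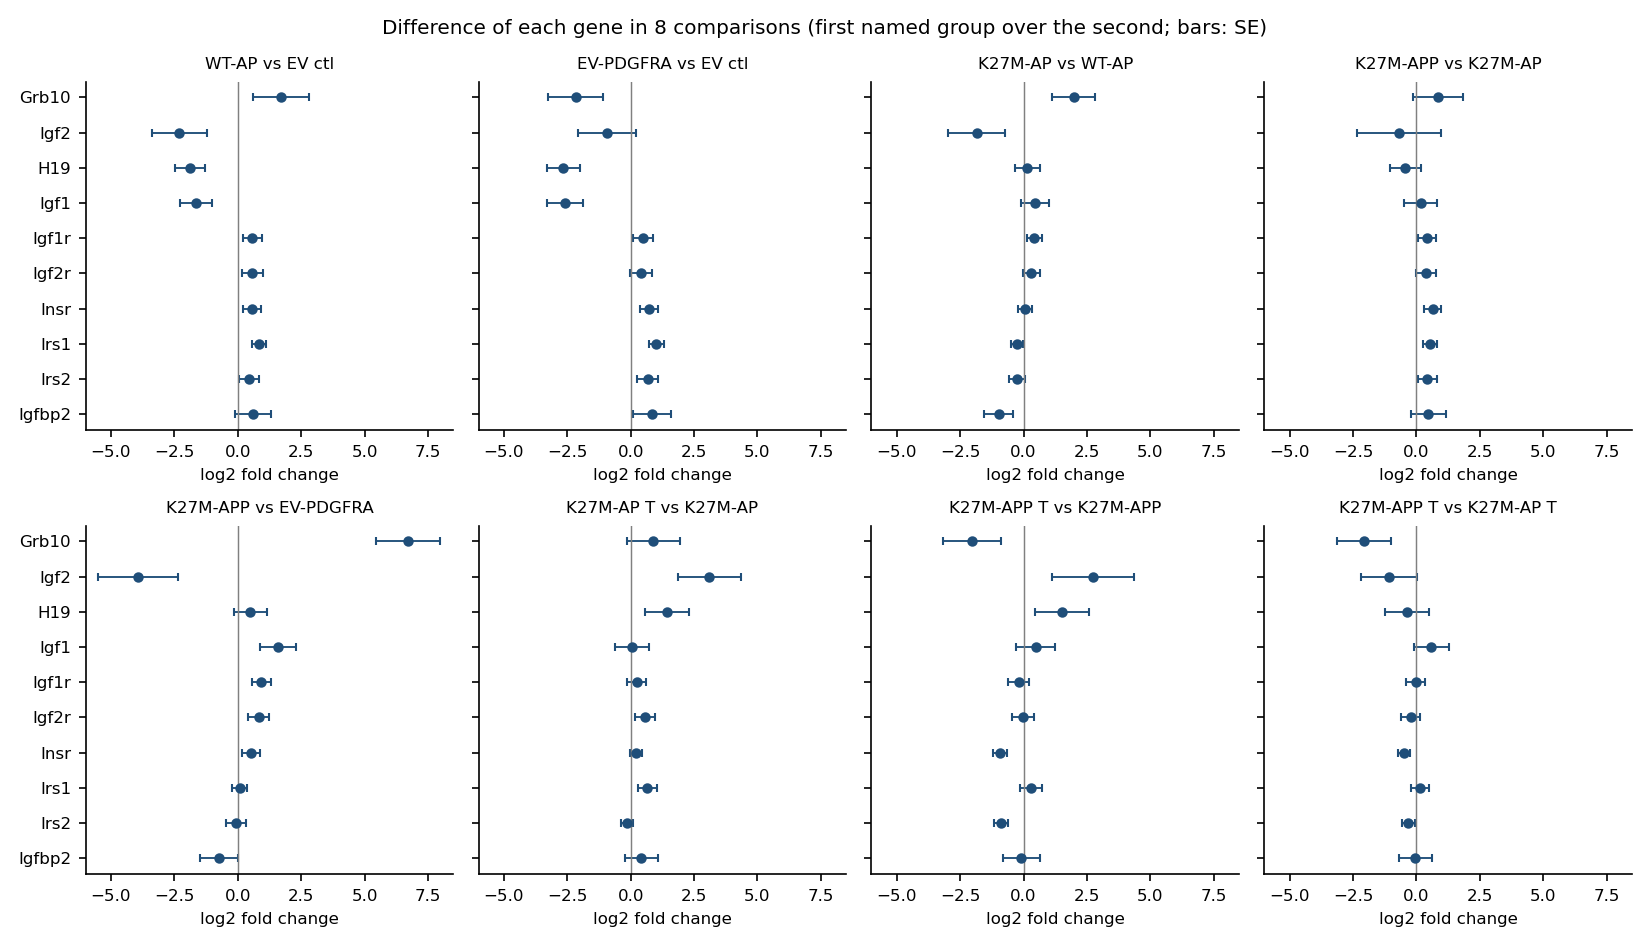
Log2 differences of the 10 genes in the 8 comparisons, with bars of 1 SE from the edgeR fit. Grb10 in K27M-APP against EV-PDGFRA (6.72) stands farthest from 0.

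In the 7 comparisons that did not choose the genes, edgeR called 0 of 10 members each time. Those with EV-PDGFRA or K27M-APP cells share libraries with the contrast that chose Grb10, so its direction there is not independent of the choice. The share of all genes called was 0.312% for WT-AP against EV ctl (0.0842% called higher in WT-AP), 0% for EV-PDGFRA against EV ctl, 0% for K27M-APP against K27M-AP, 0.0245% for K27M-AP T against K27M-AP and 0% for K27M-APP T against K27M-AP T, beside the shares given above. Unadjusted p-values under 0.05 went to H19, Igf1 and Irs1 in both comparisons with EV ctl (3 of 10, where 10% of genes were under it for WT-AP and 7.03% for EV-PDGFRA) and to Igf2 alone in K27M-AP T against K27M-AP (12.2% of genes). They went to 0 members in K27M-APP against K27M-AP (5.94% of genes) and in K27M-APP T against K27M-AP T (2.67% of genes). DESeq2 called H19 in EV-PDGFRA against EV ctl and 0 members in the other 6, and limma-voom called 0 in all 7.

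Library ranges stayed apart for 6 members in WT-AP against EV ctl (20.1% of genes) and for 5 in EV-PDGFRA against EV ctl (23.6% of genes). They stayed apart for 0 in K27M-AP against WT-AP (2.00%), 2 in K27M-APP against K27M-AP (19%), 2 in K27M-AP T against K27M-AP (9.93%), 4 in K27M-APP T against K27M-APP (17.3%) and 1 in K27M-APP T against K27M-AP T (2.66%). The members' median log2 difference was 0.56, 0.45, 0.10, 0.42, 0.50, -0.05 and -0.28 in the same order, and that of all genes was within 0.1 of 0 throughout.

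The wider pathway was followed in 50 further genes, chosen for their role: other ligands and binding proteins, adaptors, PI3 kinase and Akt, the mTOR branch, Foxo factors and negative regulators such as the Socs genes. Of these, 44 were tested, and edgeR called 0 in each of the 8 comparisons. Unadjusted p-values under 0.05 numbered 10 of 44 in WT-AP against EV ctl (10% of all genes), 7 in K27M-AP T against K27M-AP (12.2%), 6 in K27M-APP against EV-PDGFRA (15.5%) and 0 in K27M-APP against K27M-AP (5.94%). They numbered 2 in each of the other 4, where 2.67 to 7.03% of all genes were under it. The list's median log2 difference lay between -0.10 and 0.08. Grb14, the close relative of Grb10, ranged from 3.06 to 76.4 CPM, and Grb7, the third of the family, had at most 0.105 CPM. Nedd4, the ubiquitin ligase that binds Grb10, held 1120 to 2235 CPM. The core signalling genes varied little: Pik3ca, a catalytic subunit of PI3 kinase, held 108 to 146 CPM, Akt1 162 to 276 CPM and Mtor 97.7 to 177 CPM.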

How the data were processed

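Per the labels' protocols, ribosomal RNA was depleted from total RNA and libraries were sequenced paired-end. The authors deposited raw counts per gene in 2 tables, and per the submitters' processing notes the build was mm10 and the tools were featureCounts 1.4.4, Picard, GATK, SAMtools 0.1.19, STAR 2.3.0e and Trimmomatic 0.32, with no order or role stated. Annotation, strand setting and treatment of multi-mapping reads are not given in the sources used here. The 12 libraries found in both tables had identical values, and 8 columns of other samples were not analysed here. The series text counts differ from the 15 preneoplastic and 8 tumour libraries held.

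Counts were scaled by TMM and tested with edgeR 4.0.16 (R 4.3.3, quasi-likelihood F-test, filterByExpr with a minimum count of 10 and total of 15, Benjamini-Hochberg over all genes, threshold 0.05). The 15 preneoplastic libraries formed 1 fit (20197 genes), and K27M-AP, K27M-APP and their tumours another (20373 genes). K27M-P T entered no test. The SE is the log2 difference divided by the root of its F statistic, and CPM are TMM-scaled over 23 libraries. Alternatives were DESeq2 1.42.0, limma 3.58.1 (voom), other scaling and filters, fits of the compared groups only, a term for table or replicate number, and each library left out. Scripts were tested on simulated data.

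The members and gene lists were chosen with earlier results of these data known. Named beyond the members were the 5 genes most like Grb10 by Spearman's rho, locus neighbours, and the pathway genes Ins1, Ins2, Grb14, Grb7, Nedd4, Pik3ca, Akt1 and Mtor, which were picked after their values were seen.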

Additional observations from a re-analysis of the deposited data

Results flagged for a closer look

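Of 30 sets of 4 libraries, each gene in each group of that size, 2 had a library far from the other 3. The rule flags about 1 in 20 sets of normally distributed values. These sets reuse the same libraries and CPM need not be normal, so that rate is only a rough guide. H19 in K27M-AP was highest in K27M-AP 2, at 11.9 CPM beside 2.58 to 3.71 CPM. Insr in K27M-APP T was lowest in K27M-APP T 3, at 75.6 CPM beside 87.8 to 90.1 CPM. K27M-APP T 3 is also the tumour library with the highest fibroblast and meningeal marker sum, 214 CPM, whose part in the Insr value was not tested.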

How the results depend on the processing

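In 6 of the 8 comparisons and in both interactions, 0 members were called by edgeR and under every alternative run. In EV-PDGFRA against EV ctl, DESeq2 called 1 (H19) where edgeR called 0. In K27M-APP against EV-PDGFRA, where edgeR called 1 (Grb10), limma-voom called 4, the fit with only the compared groups 2 and the fit with the replicate block 4. That contrast chose Grb10, so these counts are no support. With each library left out, that count ran from 0 to 1: it was 0 without EV-PDGFRA 1, EV-PDGFRA 3, K27M-APP 1 or K27M-APP 2. Grb10 in K27M-AP T against K27M-AP reversed among earlier-table libraries, to -0.42 against 0.89, and the cause was not tested. The replicate block moved Grb10 in K27M-AP against WT-AP to 2.79. Some same-numbered libraries deviated together and others did not (correlations -0.197 to 0.579), and in no comparison was every pair above 0.1, so the numbers were not taken as pairs. No paired analysis was possible for the comparisons with EV ctl because the groups share fewer than 2 numbers. Within-table fits could not be made for EV ctl in the earlier or K27M-APP in the later table. Counts over all genes moved more: 392 genes in K27M-APP against EV-PDGFRA ran from 44 to 5142, 63 in WT-AP against EV ctl from 2 to 448, 6 in K27M-AP against WT-AP from 0 to 64, and 5 in K27M-AP T against K27M-AP from 0 to 578. Those at 0 reached 101 (EV-PDGFRA against EV ctl), 6 (K27M-APP against K27M-AP), 117 (K27M-APP T against K27M-APP) and 11 (K27M-APP T against K27M-AP T), and the 2 interactions 18 and 2. Depth limits Igf2 and Igf1, with at most 42 and 47 reads per library.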

Other observations

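Among other IGF binding proteins, named after their values were seen, Igfbp3 ranged from 32.6 to 2513 CPM over the 23 libraries, Igfbp4 from 10.5 to 419 CPM and Igfbp5 from 6.86 to 386 CPM, while Igfbp1 reached at most 0.118 CPM. Irs4, a substrate close to Irs1 and Irs2, had a median of 0.433 CPM and reached 37.2 CPM in its highest library. In every library, 71.7 to 77.1% of the gene counts between 1 and 10 were even numbers. Whether fragments or read ends were counted is not given in the sources used here.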
